A study of Mus musculus with 48 samples.

Results

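The samples compared were m6A-IP libraries from the hippocampus of 5-month-old wild-type (WT) mice, 3 trained in a spatial task and 3 naive, chosen by their labels as WT_tr5 and WT_c5. They are 6 of the 24 m6A-IP libraries of a study of WT and Huntington's disease knock-in mice, which holds 48 libraries with the inputs and 8 conditions. WT mice carried HdhQ7/7, that is, 2 unexpanded copies of the huntingtin gene, and the mice were male. Trained mice, after habituation to the empty arena, explored identical objects in an open field with wall cues for 10 min in the object location task, and tissue was taken 30 min later. Naive mice were not trained. Every library came from a different animal. The question was which m6A peaks differ shortly after a learning episode in mice without the huntingtin mutation.

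N6-methyladenosine (m6A) is the most common internal modification of mRNA. It is placed by the METTL3-METTL14 complex on adenosines within a short consensus that often reads GGAC, most densely around the stop codon, and reader proteins of the YTH family use it to steer splicing, decay and translation. In MeRIP-seq, fragmented RNA is pulled down with an m6A antibody and sequenced beside an input of the same RNA, so that a peak marks a stretch with more IP than input reads. Immediate-early genes such as Fos, Arc and Egr1 are transcribed within minutes of neuronal activity and serve in the hippocampus as markers of recently active cells.

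Below are the nearest GGAC motifs to the peak summits of selected regions, read from the mouse genome mm9 on the transcribed strand. The regions printed were chosen among those with GGAC near the summit, and other regions named in the results had none, as given below. Each line holds GGAC in capitals with 12 bases on each side. The first set belongs to activity-induced genes, whose peaks are followed animal by animal.
Fos, 3'UTR, chr12:86817507-86817534: tcgacctagggaGGACcttacctgttcg
Arc, 3'UTR, chr15:74501535-74501562: ttttgccaactaGGACttgagctggggc
Egr3, CDS, chr14:70479181-70479208: cttccagggcatGGACcccatccgggtc
Nr4a1, CDS, chr15:101104653-101104680: caagatctttatGGACacattgtctttc
Homer1, 3'UTR, chr13:94136502-94136529: gaaggaagagatGGACttgggaaggctc
Klf2, 3'UTR, chr8:74844894-74844921: ctgctatttattGGACcttaggacagag
Dusp5, 3'UTR, chr19:53616169-53616196: gcgagcttcgctGGACcaggacgggaga
Bdnf, CDS, chr2:109563629-109563656: gtaaacgtccacGGACaaggcaacttgg

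The second set belongs to regions with a peak in every naive animal and in no trained animal (Rsf1, Usp36, Ttc3), or the other way round (Leng1, Aplf, Rarg, Zdhhc4).
Rsf1, CDS, chr7:104813083-104813110: gcaaagttcgatGGACtggctctcggac
Usp36, CDS, chr11:118125106-118125133: agcctgaggccaGGACagagttgcagaa
Ttc3, intron, chr16:94602865-94602892: gtatgtgggtaaGGACactcagagagag
Leng1, 5'UTR, chr7:3616993-3617020: cgtccggaacaaGGACaatgttgcccgc
Aplf, CDS, chr6:87596295-87596322: aaacatagtaaaGGACccagatgtggat
Rarg, 3'UTR, chr15:102066367-102066394: gtgactgggggaGGACctgccccgccca
Zdhhc4, 5'UTR, chr5:144090467-144090494: cctaccccatgtGGACaacctcaccatg

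The motif lay almost on the summit in Nr4a1 and Klf2 (-1 nt), Dusp5 (2 nt), Aplf (3 nt), Egr3 and Ttc3 (6 nt), and farther from it in Arc (-39 nt), Fos (54 nt), Homer1 (65 nt) and Leng1 (80 nt), positive values being downstream in the transcript. In windows of 200 bases on the summit, GGAC occurred on the transcribed strand in 59.3% of the 33237 regions that lie in exactly 1 gene, and the same letters on the opposite strand in 39.1%. Among the 92 such regions of immediate-early genes these shares were 72.8% and 52.2%. No GGAC lay in the window of the main Fosb, Junb, Egr2 and Egr4 regions, of the Npas4 CDS region or of the Homer1 5'UTR and CDS regions. A match describes the sequence under a peak and does not place a methylated base.

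Fewer m6A peaks were deposited for trained than for naive WT mice. The 3 naive animals had 34304, 32418 and 30287 peaks and the 3 trained animals 26714, 22567 and 27833. The means were 32336 ± 2010 and 25705 ± 2774 (SD, n = 3 each), a ratio of 0.795, and the groups did not overlap (two-sided exact permutation test, p = 0.1, the smallest p that 3 against 3 animals allow). Genes with at least 1 peak numbered 10759, 10122 and 10072 in naive and 9708, 9245 and 9574 in trained animals, again without overlap (exact permutation test, p = 0.1). The p-values measure the spread between animals. In whole hippocampus, fewer cells of a type and less RNA per cell cannot be told apart.

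The groups overlapped in how much RNA the peaks covered and in how strong they were. Peaks covered 16.8 ± 4.55 Mb in naive and 14.7 ± 2.07 Mb in trained animals (n = 3 each, exact permutation test, p = 0.6). The median fold enrichment of IP over input at the summit was 4.89 and 4.84 (exact permutation test, p = 0.7). The files analysed give no read totals, which leaves the peak number itself to gauge the yield of a library.

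A library in each group stood apart. Naive replicate 2 had the shortest peaks, with a median of 262 bp against 369 to 476 bp in the other 5 animals, and 2.12% of its summits in 5'UTRs against 3.92 to 6.13%. Its log2 fold enrichment correlated with that of the other animals at r = 0.548 to 0.610 across the 13755 regions called in all 6 animals. For trained replicate 2 these correlations were 0.548 to 0.645, and among the animals other than these replicates 0.701 to 0.759. Trained replicate 2 had the fewest peaks and 40.8% of its summits in CDS, against 28.5 to 30.8% in the others. Within-group correlations ran from 0.599 to 0.759 and those between groups from 0.548 to 0.754, so both ranges overlapped. Without naive replicate 2 the ratio of peaks was 0.796, and without trained replicate 2 it was 0.843 (exact permutation test, p = 0.2).

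**Figure D1:**
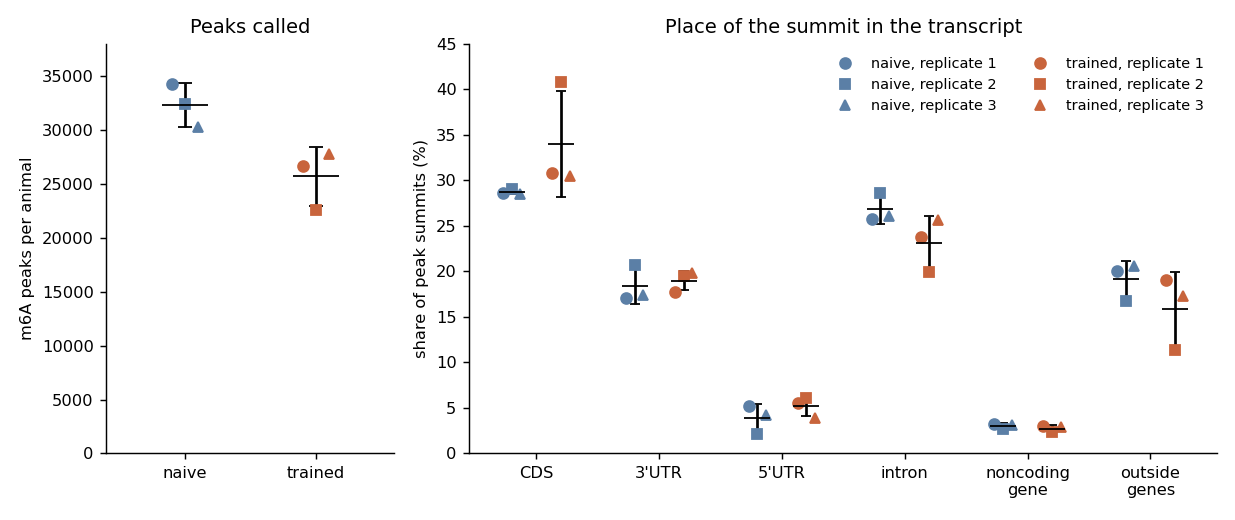
Peaks per animal (left) and share of peak summits in each transcript class in percent (right) for 3 naive and 3 trained WT mice, with points for animals, a dash for the mean and bars for the SD. The trained animals lie at 22567 to 27833 peaks, below all naive animals, and the CDS share of trained replicate 2 (40.8%) stands above the others.

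By place in the transcript, naive and trained summits lay most often in CDS, introns, 3'UTRs and outside genes. The share outside genes was 19.1 ± 2.05% in naive and 15.9 ± 4.05% in trained animals (n = 3 each, exact permutation test, p = 0.3). Noncoding genes held 3.01 ± 0.284% and 2.73 ± 0.360% (n = 3 each, exact permutation test, p = 0.4). Summits in CDS made up 28.6%, 29.0% and 28.5% in naive and 30.8%, 40.8% and 30.5% in trained animals, means of 28.7 ± 0.255% and 34.0 ± 5.85% (n = 3 each, exact permutation test, p = 0.1, adjusted p = 0.4 over 8 measures). Without trained replicate 2 the difference was 1.93 percentage points in place of 5.31. Intronic summits made up 25.8%, 28.6% and 26.1% in naive and 23.8%, 19.98% and 25.7% in trained animals, all trained values being lower (exact permutation test, p = 0.1, adjusted p = 0.4). With every animal cut to its best 22567 peaks, the number of the smallest library, the trained minus naive difference was 2.43 percentage points for CDS (exact permutation test, p = 0.6) and -1.88 in place of -3.68 for introns (exact permutation test, p = 0.5), and neither share separated the groups. The 3'UTR share was 18.4 ± 2.01% and 19.0 ± 1.08% (n = 3 each, exact permutation test, p = 0.8) and the 5'UTR share 3.86 ± 1.59% and 5.20 ± 1.14% (n = 3 each, exact permutation test, p = 0.3). Counting error on any of these shares was at most 0.641 percentage points (half-width of the 95% Wilson interval). The SD between animals was above this bound in both groups for 3'UTRs, 5'UTRs, introns and outside genes, and for CDS in trained animals. It was below the bound for CDS in naive animals (0.255) and for noncoding genes (0.284 and 0.360).

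The stop codon was the centre of the signal in every animal. Of summits in exons of a coding transcript, 28.9 ± 0.885% in naive and 28.8 ± 1.12% in trained animals lay within 200 nt of it (n = 3 each, exact permutation test, p = 0.9). The fullest 100-nt bin held 8.71%, 8.33% and 8.803% of exonic summits in the naive and 8.79%, 8.27% and 8.42% in the trained animals, and touched the stop codon each time. GGAC occurred in 41.6 ± 1.59% of 100-bp summit windows in naive and 43.8 ± 1.25% in trained animals (n = 3 each, exact permutation test, p = 0.2), with 22.7% and 24.2% on the opposite strand.

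**Figure D2:**
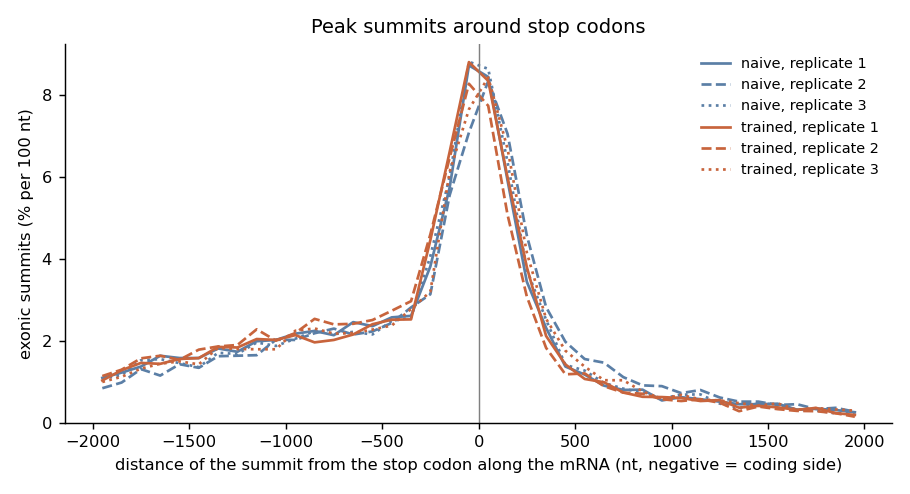
Share of exonic summits in 100-nt bins (y axis, percent) by distance from the stop codon in transcript nt (x axis), one line for each of the 3 naive and 3 trained WT animals. All 6 lines have their highest bin next to the stop codon, at 8.27 to 8.803%, and the groups lie on each other.

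Joining the peaks of the 6 animals gave 47537 regions. Of these, 11123 had a peak in 1 naive animal alone and 3132 in 1 trained animal alone. In 13755 regions all 6 animals had a peak. Fewer trained than naive animals had a peak in 21486 regions (45.2%), and more in 6409 (13.5%). A peak in at least 2 animals was found in 28130 regions for naive and 22762 for trained mice, 21118 of them in both.

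Regions with a peak in every animal of 1 group and in none of the other were few, and more of them were naive-only. All 3 naive and no trained animal had a peak in 511 regions (1.07%), and all 3 trained and no naive animal in 24 (0.0505%). With the best 22567 peaks of each animal the counts were 151 and 106. Introns held 40.3% of the 511 naive-only and 37.5% of the 24 trained-only regions, against 32.7% of all regions and 16.1% of those called in all 6 animals. With a peak in at least 2 animals of a group and none of the other, the intron share was 40.6% of 2941 naive-only and 45.1% of 335 trained-only regions. In 100-bp windows on the summit, narrower than the 200-base windows above, GGAC was found in 32.0% of the 319 naive-only regions that lie in 1 gene, in 47.6% of the 21 such trained-only regions and in 38.7% of all 33237. Leaving out any animal eases the rule by construction. Without naive replicate 2 the counts were 1468 and 53, and without trained replicate 2 they were 713 and 175. With each animal left out in turn, the counts ran from 713 to 1468 and from 53 to 175.

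**Figure D3:**
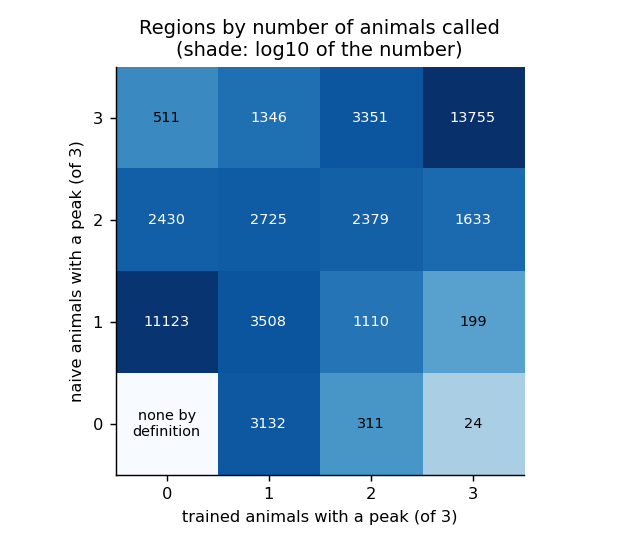
Number of joined regions by how many of the 3 naive (y axis) and 3 trained (x axis) WT animals had a peak. The 13755 regions called in all 6 animals are the most frequent combination, and the corner with 3 naive and 0 trained animals (511) is fuller than the opposite corner (24).

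Among the naive-only regions, the strongest were ordered by their mean -log10 q over the 3 animals with a peak. First came the CDS of Rsf1, a subunit of a chromatin remodelling complex (chr7:104812903-104813151), with fold enrichments of 4.33, 6.58 and 5.05 and no peak in a trained animal. The CDS of Usp36, a nucleolar deubiquitinase (chr11:118125084-118125323), followed with 4.24, 8.097 and 3.18. Intronic regions of Extl3 and Gnpat, an intronic region of Ttc3, an E3 ubiquitin ligase gene, one of Enpp4, the 3'UTR of 9030425E11Rik and an intron of Olfml1 completed the first 8. The Rsf1, Usp36 and Ttc3 regions carry GGAC near the summit, as printed above, while Gnpat, Enpp4, 9030425E11Rik and Olfml1 had none in the window. Some genes held several naive-only regions: 4 in Etl4, 3 in Park2, which encodes the ubiquitin ligase parkin, and 2 each in Cntnap5c, Dab1, Frmpd4, Grm7, Il1rapl1, Lrp1b, Nrxn3, Odz4 and Sox5, among others.

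The 24 trained-only regions had a median -log10 q of 6.25, close to the 6.58 of the 511 naive-only ones. The 5'UTR of Leng1 (chr7:3616956-3617620) led with fold enrichments of 6.20, 6.92 and 8.53 in the trained animals and a mean -log10 q of 12.6. An intron of Taok3, a kinase of stress-activated MAPK cascades, had 7.38, 5.12 and 9.53, and the CDS of Aplf, a DNA repair factor, 6.21, 8.44 and 6.86. Cachd1 (intron), Hs2st1 (5'UTR), the noncoding gene Gt(ROSA)26Sor, Ehd1 (CDS) and Mertk (intron) followed. Ehd1 encodes an ATPase of endocytic recycling, and its region (chr19:6276752-6277121) had 3.94, 3.64 and 2.02. Rarg, a retinoic acid receptor (3'UTR, 4.19, 6.63 and 5.03), and Zdhhc4, a palmitoyltransferase of the ZDHHC family (5'UTR, 3.87, 4.41 and 3.92), stood lower in the same list and are named for the sequences printed above.

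Counted over whole genes, 82 of 11931 genes (0.687%) had a peak somewhere in all 3 naive and in no trained animal, and 3 genes (0.0251%) the reverse. The 3 were Ccbl1, Mccc2 and Zdhhc4. Genes with the strongest naive-only peaks included Rhd, with highest fold enrichments of 14.5, 8.14 and 7.93, Rae1 with 6.52, 5.14 and 3.62, and Stmn2, which encodes a microtubule regulator of growing axons, with 3.23, 3.20 and 2.999. A gene without a peak is not a gene without m6A, since calling depends on yield.

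In regions called in every animal, no difference in enrichment between trained and naive WT mice passed the test. Of 13755 regions, 0 (0%) had an adjusted p under 0.05 in limma, and the smallest adjusted p was 0.9999. At an unadjusted p under 0.05, 1.75% of regions were higher and 1.85% lower in trained mice, and the ranges of the 3 and 3 animals did not overlap in 544 higher (3.95%) and 615 lower (4.47%) regions. The median standard error of a log2 difference was 0.300, and differences over 1 on the log2 scale did not pass either (Wnt9a and Tmie, described next). At 3 animals a group even a 2-fold difference at a region was mostly not detectable, so the count of 0 does not show that enrichment was alike. Before normalization the median log2 difference over all regions was -0.081, and the unadjusted counts without it were 128 higher and 414 lower.

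The regions with the smallest p, none of which passed the adjustment, were in genes of several kinds. Enrichment of a CDS region of Wnt9a, a secreted Wnt ligand, was 1.55, 1.43 and 1.80 (log2) in naive and 2.84, 2.41 and 2.697 in trained animals, a difference of 1.06 ± 0.254 (SE, adjusted p = 0.9999 in limma). The 3 trained animals were all above the 3 naive ones, as they were for an intron of Bmpr1b, a bone morphogenetic protein receptor (2.33, 2.75 and 1.86 against 3.81, 3.50 and 3.61), and for an intron of Grm5, a group I metabotropic glutamate receptor (1.35, 1.14 and 1.48 against 1.87, 2.43 and 2.18). The 3'UTR of Tcfeb, a transcription factor of lysosome genes, stood at 2.35, 2.06 and 2.10 against 3.29, 3.33 and 3.13. Spsb1, Nfyc, Kctd15, Plxnb1, Ddx59 and Fam19a1 completed the 10 higher regions, with log2 differences of 0.65 to 1.19.

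Of the 10 lower regions with the smallest p most lay in CDS, the class that held 41.6% of all regions tested. The 3'UTR of Tmie, a component of hair cell mechanotransduction, stood at 3.04, 3.40 and 3.35 (log2) in naive and 1.71, 1.67 and 2.42 in trained animals, a difference of -1.33 ± 0.302 (SE, adjusted p = 0.9999 in limma). For the CDS of Kcnh5, a voltage-gated potassium channel, the values were 3.02, 3.53 and 2.82 against 1.99, 1.87 and 2.25, and for Ntn1, the axon guidance cue netrin-1, 3.25, 3.26 and 2.77 against 1.93, 1.62 and 2.48. Hdac9, a class IIa histone deacetylase, had 2.22, 2.11 and 2.39 against 1.58, 1.55 and 0.97. The others were Pde6d, Sugp2, March11, Micall1, Pde3a and Lrrc39, with log2 differences from -1.36 to -0.83. By class, 70 of 3439 regions in 3'UTRs were lower and 32 higher at an unadjusted p under 0.05. The counts were 38 and 63 of 2213 in introns, 103 and 95 of 5719 in CDS, and 3 and 8 of 433 in 5'UTRs.

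A second measure was the mean level of each group, on the log2 scale, that the authors deposited for 5962 peaks of this comparison from read counts in the peaks. These levels have no error, and the table holds only peaks that had passed a p filter, so its counts describe the table and not all peaks. Of the listed peaks, 950 (15.9%) had a higher and 5012 (84.1%) a lower level in trained mice, with a median difference of -0.42. By more than 1 on the log2 scale, 140 (2.35%) were higher and 405 (6.79%) lower. Peak calls went the same way: of the 140, 86 were called in more trained than naive animals and 1 in fewer, and of the 405, 334 were called in fewer trained animals and 2 in more. Both calls and levels come from the same IP libraries.

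The listed peaks differed by place. In 5'UTRs 144 of 250 peaks (57.6%) had the higher level in trained mice, against 18.0% of 2215 in CDS, 13.6% of 1688 in introns and 7.95% of 1334 in 3'UTRs. Introns made up 60% of the peaks lower by more than 1 (243 of 405), and 5'UTRs 30% of those higher by more than 1 (42 of 140). At the higher peaks, calls in 1 naive library stood apart. Naive replicate 2 had a peak in 32 of the 140 (22.9%), where the other 5 animals had one in 77.9 to 96.4%, and in 38 of the 144 higher 5'UTR peaks (26.4%), where the others had 89.6 to 99.3%. Of 5439 listed peaks called in naive replicate 2, 10.5% were higher in trained mice, and of the 523 not called there, 72.8%. The naive mean includes this library, so peaks missing there tend to a lower naive mean by construction. The split therefore cannot show the library's part. For the 405 lower peaks, calls were 97.0 to 98.0% in the naive animals and 44.0%, 21.0% and 49.1% in the trained ones. The part of these libraries in the levels was not tested.

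**Figure D4:**
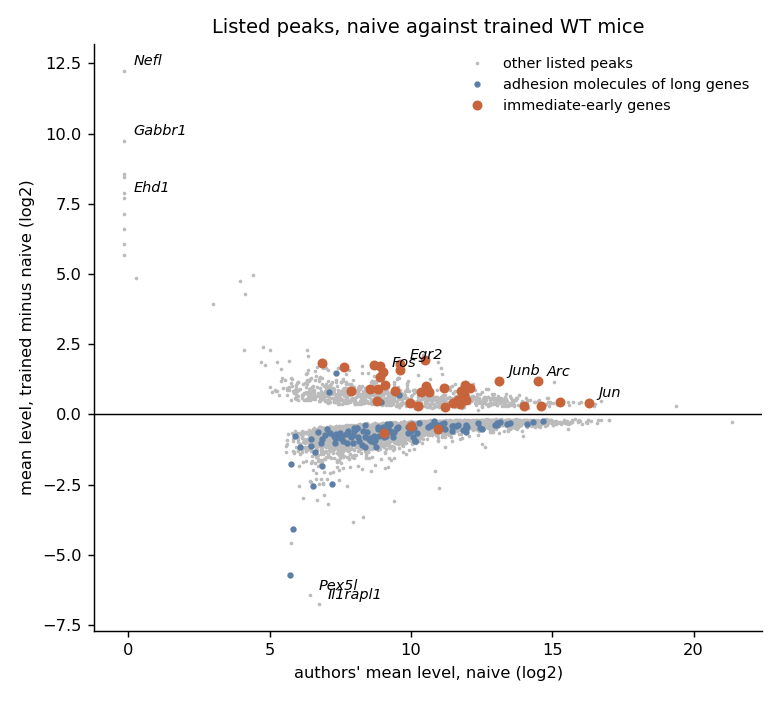
Trained minus naive difference of the authors' mean level (y axis, log2) against the naive level (x axis, log2) for the 5962 listed peaks, with immediate-early genes in orange and adhesion molecules of long genes in blue. Most peaks lie below 0 (5012 of 5962), while 37 of 40 immediate-early peaks lie above it.

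Immediate-early genes went against the rest of the table. Of the 44 genes on this list, 42 had a region, 95 regions in all, and 40 peaks were listed: 37 had a higher level in trained mice and 3 a lower one, with a median difference of 0.85 against -0.42 for all listed peaks, and 13 were higher by more than 1. The 3 lower ones were Inhba (9.99 to 9.59), Klf6 (10.96 to 10.46) and Ptgs2 (9.04 to 8.39). Genes of the list had been seen among higher peaks of these samples when the list was written, so the count is a description. Of the 29 listed immediate-early peaks that naive replicate 2 also had, 26 were higher in trained mice, 5 of them by more than 1. The median of the 29 was 0.69. Of the 11 that naive replicate 2 lacked, all 11 were higher, 8 of them by more than 1, with a median of 1.59. As above, the gap between these sets is partly built in, since the naive mean includes this library. By calls, 25 of the 95 regions were found in more trained animals, 13 in fewer (13.7%) and 57 in as many. For all regions the shares in more and in fewer were 13.5% and 45.2%, but these include introns and regions outside genes. Only 12 of the 95 regions were intronic. Of all CDS, 3'UTR and 5'UTR regions, 28.1%, 33.6% and 28.9% were called in fewer trained animals. Between 7.36% (3'UTR) and 34.3% (5'UTR) of these classes were called in more. The calls per animal in the 95 regions were 82, 55 and 71 for naive and 75, 78 and 66 for trained mice, which overlap.

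Fold enrichment over input did not follow these levels. Over the 44 immediate-early regions called in all 6 animals, the median log2 difference in enrichment was -0.06 and the difference was above 0 in 19. Of these 44, 0 regions were higher and 1 was lower at an unadjusted p under 0.05, and 0 and 2 did not overlap between groups (for all regions, 1.75%, 1.85%, 3.95% and 4.47%). The smallest adjusted p on the list was 0.9999 in limma.

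**Figure D5:**
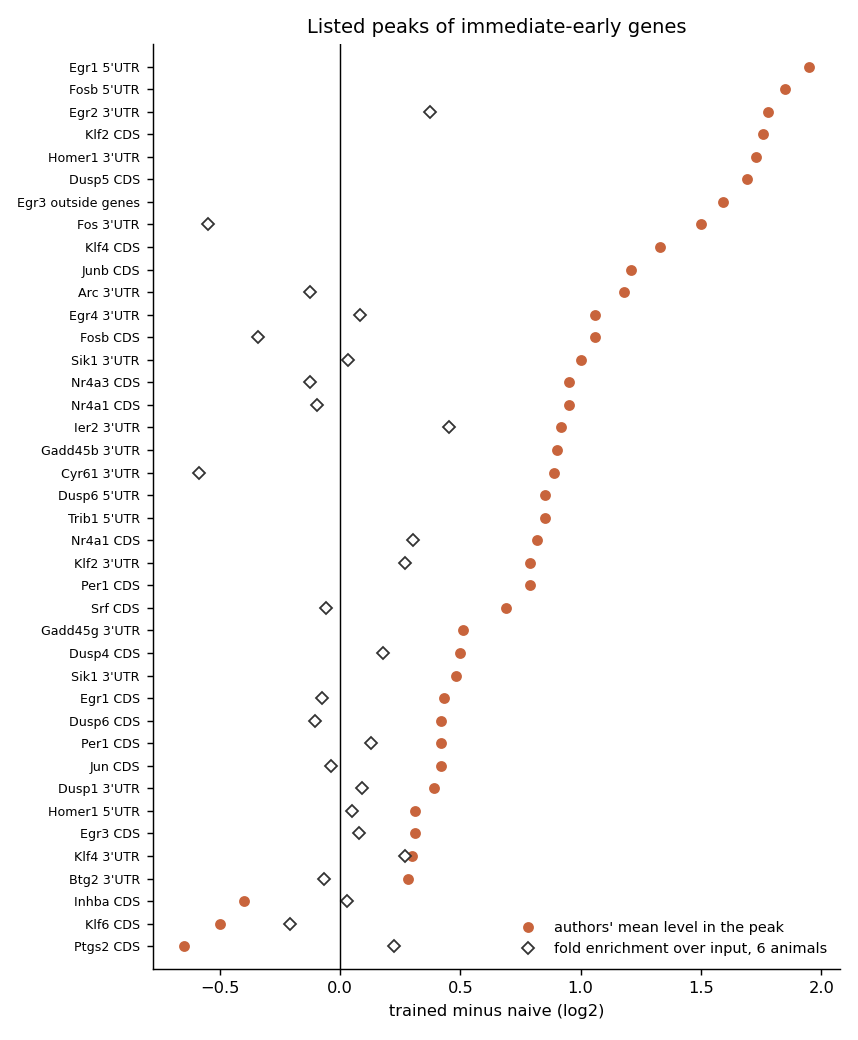
Trained minus naive difference (x axis, log2) for peaks of immediate-early genes (rows), as the authors' mean level in the peak (filled circles) and as fold enrichment over input where all 6 animals had the peak (open diamonds). The levels lie to the right of 0 for nearly all peaks (37 of 40), while the enrichment differences scatter around 0.

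The AP-1 subunits came first. Fos had a listed level of 9.01 in naive and 10.51 in trained mice in its 3'UTR region (chr12:86816360-86817770). Fold enrichment there was 5.61, 4.11 and 4.17 in naive and 3.01, 2.96 and 2.94 in trained animals, so every trained animal was below every naive one while the level was higher (log2 difference -0.55 ± 0.233 SE, adjusted p = 0.9999). For Fosb, the level went from 9.09 to 10.15 in the CDS and from 6.86 to 8.71 in the 5'UTR. Enrichment in the CDS was 9.02, 6.50 and 9.46 against 6.46, 5.32 and 6.31, the deposited values of the trained animals again all lower. After normalization the log2 difference there was -0.34 ± 0.294 (SE, adjusted p = 0.9999 in limma). The Fosb 5'UTR peak was called in 1 naive and 3 trained animals. Junb went from 13.12 to 14.33, with a peak in 2 naive and 3 trained animals, and Jun from 16.31 to 16.73 with enrichments of 3.46, 2.86 and 3.23 against 3.47, 2.995 and 2.51.

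The zinc finger factors of the Egr family, which activate late-response genes, had higher levels at every listed peak. Egr1 went from 10.51 to 12.46 in the 5'UTR, called in 2 naive and 3 trained animals, and from 15.26 to 15.69 in the CDS, where enrichment was 5.65, 3.60 and 3.95 against 3.97, 4.36 and 3.34. Egr2 went from 9.62 to 11.40, Egr4 from 11.92 to 12.98, and Egr3 from 14.60 to 14.91 in the CDS and from 9.62 to 11.21 just outside the annotated gene. Fold enrichment of Egr2 was 7.48, 8.39 and 8.58 against 5.84, 13.3 and 11.2, and its groups overlapped (log2 difference 0.38 ± 0.383 SE, adjusted p = 0.9999).

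The orphan nuclear receptors of the Nr4a family gave the same pair of readings. Nr4a1 went from 12.10 to 13.05 and from 11.76 to 12.58 at its CDS regions, and Nr4a3 from 11.16 to 12.11. Enrichment at the second Nr4a1 region, whose summit lies on the GGAC printed above, was 2.96, 2.02 and 2.64 against 2.73, 3.37 and 2.91. The CDS of Nr4a2 was not listed, and its enrichment was 3.34, 3.94 and 4.01 in naive and 2.53, 2.69 and 2.71 in trained animals, without overlap (log2 difference -0.44 ± 0.215 SE, adjusted p = 0.9999). Npas4, an activity-dependent factor of inhibitory synapse genes, had no listed peak either, and its CDS enrichment of 8.09, 5.49 and 7.07 against 4.46, 4.38 and 6.12 overlapped between groups (log2 difference -0.37 ± 0.291 SE).

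Effector genes at the synapse were next. Arc, which regulates AMPA receptor endocytosis, went from 14.49 to 15.67 in the 3'UTR (chr15:74501092-74503010), with enrichments of 4.10, 2.19 and 3.21 in naive and 2.49, 3.11 and 2.63 in trained animals, which overlap (log2 difference -0.13 ± 0.249 SE). Homer1, a postsynaptic scaffold that also has a short, activity-induced form, had a listed peak in a 3'UTR inside the gene, where shorter annotated transcripts end (chr13:94136221-94136739). Its level went from 8.89 to 10.62, and it was called in naive replicates 1 and 3 (3.98 and 6.38) and in all trained animals (4.73, 8.31 and 7.62). The 5'UTR region of Homer1 went from 14.01 to 14.32, and the region at the end of its long form was not listed, with a log2 difference in enrichment of -0.01 ± 0.273 (SE). Bdnf, the neurotrophin gene, had no listed peak, and its CDS enrichment was 6.08, 3.41 and 4.85 against 6.08, 4.86 and 4.07 (log2 difference 0.17 ± 0.288 SE). In the Bdnf 5'UTR (chr2:109514980-109515489) the values were 11.4 and 10.6 in naive replicates 1 and 3, with no peak in replicate 2, and 5.38, 5.41 and 8.102 in the trained animals, all below both naive values.

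Feedback regulators and other early genes had higher levels as well. Dusp5, a nuclear phosphatase of ERK, went from 7.64 to 9.33 in the CDS, Sik1, a salt-inducible kinase that restrains CREB coactivators, from 10.53 to 11.53, and Klf2, a Krüppel-like factor, from 8.69 to 10.45 in the CDS and from 10.63 to 11.42 in the 3'UTR. Ier2 went from 10.55 to 11.47 with enrichments of 7.50, 6.52 and 9.45 against 12.3, 8.82 and 8.57. The groups overlapped for Ier2, and also for Klf2 in the 3'UTR, where enrichment ran from 3.86 to 16.2 among naive animals alone. Cyr61, a secreted matrix protein of vessels and glia, went from 8.84 to 9.73 while its 3'UTR enrichment was 19.0, 11.3 and 9.65 against 10.8, 5.58 and 8.31. Among peaks outside the list, the host transcript of Mir132 and Mir212, microRNAs that CREB induces, went from 10.44 to 12.55, with enrichments of 9.78, 3.21 and 4.05 against 6.72, 9.20 and 5.75, and Sgk1, a serum- and glucocorticoid-induced kinase, from 6.31 to 8.6. Both were chosen for their large level difference.

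The largest differences of mean level in the table involved values at the bottom of the scale. In 10 peaks the naive mean stood at -0.14, the lowest value of its column, and in 3 the trained mean at -0.01, so no fold is given for them. Nefl, the light neurofilament subunit, was listed at -0.14 and 12.10, yet naive replicates 1 and 3 had a peak there with enrichments of 2.77 and 2.66, beside 2.30, 3.15 and 2.29 in the trained animals. Gabbr1, a subunit of the GABA-B receptor, was listed at -0.14 and 9.60, yet all 6 animals had the peak, with 2.47, 3.31 and 2.81 against 1.72, 2.48 and 3.63. For these genes the calls of single animals and the listed mean do not go together. Pde1b, Enox1, Dync1li2, Ehd1, Chl1 and Pld3 completed the first 8, and of these only Ehd1 had no peak in any naive animal. Among other peaks with the higher level in trained mice, the largest differences were in Lrp11 (4.40 to 9.37), Nr1d2 (0.27 to 5.13), Htra1 (3.95 to 8.72) and Cck (4.13 to 8.43), none of which had a peak in naive replicate 2.

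Of the 8 listed peaks that were lower in trained mice by the largest difference, 5 were intronic. Il1rapl1, a synaptic adhesion molecule of the interleukin-1 receptor family (6.74 to -0.01), Pex5l (6.43 to -0.01) and the CDS of Odz2, a teneurin (5.71 to -0.01), ended at the lowest trained value. In the Il1rapl1 intron (chrX:84171859-84172100) the naive animals had peaks with enrichments of 2.79, 8.94 and 3.24 and no trained animal had one. Lrrc4c, the netrin-G ligand (5.82 to 1.73), Adarb2, a brain member of the RNA editing enzyme family (7.95 to 4.13), and Plekha2 (7.08 to 3.91) likewise had a peak in 3 naive and 0 trained animals, whereas Atxn7l3b (8.31 to 4.67) had 3 and 2, and the peak shared by Rnf40 and Zfp553 (5.76 to 1.20) 2 and 2.

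Adhesion molecules encoded by long genes have mostly intronic peaks. Their calls and their median level difference were near those of introns in general, while their share of lower levels was higher. The list's 34 genes gave 697 regions, 616 of them intronic, and 379 (54.4%) were called in fewer and 83 in more trained animals, where 56.2% of all intronic regions were called in fewer. Of the listed peaks 114 (96.6%) had a lower and 4 a higher level, against 84.1% lower in the whole table, and their median of -0.585 stood beside -0.62 for all listed intron peaks. Csmd1 (6.53 to 3.99), Cdh8, a type II cadherin (7.21 to 4.73), and Odz4 (6.85 to 5.03) had intronic peaks in 3 naive and 0 trained animals, while an intronic peak of Lsamp, an IgLON adhesion protein, went from 7.35 to 8.82. In the 140 regions called in all 6 animals the median difference in enrichment was 0.03 (log2). At an unadjusted p under 0.05, 3 of the 140 were higher and 0 lower, where 1.75% and 1.85% of all regions tested were. Csmd1 gave the smallest p of the list, at another intronic region (log2 difference 1.17 ± 0.369 SE, adjusted p = 0.9999), and without trained replicate 3 this difference was 0.70.

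Receptors and scaffolds of the synapse had shares of lower levels on both sides of the 84.1% of the whole table. Lower were 31 of 39 listed peaks of ionotropic glutamate receptors (79.5%), 11 of 16 of the GABA synapse (68.8%) and 46 of 59 of the postsynaptic density (78.0%). For metabotropic glutamate receptors the count was 27 of 29 (93.1%) and for presynaptic release and vesicles 57 of 63 (90.5%). Examples of lower levels are introns of Grik2, a kainate receptor subunit (6.88 to 4.40, a peak in 3 naive and 0 trained animals), Grm5 (6.70 to 4.86, 3 and 0), Dlg2, the scaffold PSD-93 (8.49 to 7.15, 3 and 0), and Syn1, synapsin I (7.07 to 5.68, 3 and 0). Higher levels were found for Homer3 (8.61 to 9.81 in an intron), for an intron of Shank1 (8.69 to 9.75) and for the 5'UTR of Syt7, a calcium sensor of vesicle release (9.87 to 10.80). Other regions of Grm5 were called in all 6 animals, among them the intronic region described above (log2 difference in enrichment 0.83 ± 0.233 SE, adjusted p = 0.9999 in limma) and a CDS region (-0.43 ± 0.201 SE, adjusted p = 0.9999), and neither passed.

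Ion channels and signalling genes had mostly lower levels, as did the table (84.1%). For voltage-gated channels 6 listed peaks were higher and 58 lower (90.6%), the lower ones including introns of Kcnma1, the BK channel (7.15 to 5.07), and Kcnh7 (8.05 to 6.62), and Cacna1h, a T-type calcium channel, went from 9.40 to 10.22 in its CDS. For CREB, CaMK and MAPK signalling 3 were higher and 17 lower (85.0%). The 3 were Crtc2, a CREB coactivator (8.74 to 9.31), the acetyltransferase Ep300 (12.73 to 13.34 in the 5'UTR) and Mef2d (11.18 to 11.87), and Camk4, the nuclear calcium kinase, was among the lower ones (10.94 to 10.01). Splicing factors had 2 higher and 31 lower (93.9%), translation and mTOR genes 1 and 9, cytoskeletal genes 6 and 24 (80.0%). Over all lists, the median difference in enrichment lay between -0.18 and 0.29 (log2), and no region of any list had an adjusted p under 0.05.

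Of the genes that write, erase and read m6A, 17 of 26 had a region, 63 in all. No listed peak was higher in trained mice and 10 were lower, with a median difference of -0.48, in a table where 84.1% were lower and the median was -0.42. Fto, the gene of an m6A demethylase, went from 11.95 to 11.57 in the CDS and from 7.83 to 6.95 and 7.81 to 6.83 in introns, Alkbh5, the gene of the other demethylase, from 9.44 to 9.03, Wtap, a subunit of the writer complex, from 12.39 to 12.08, and Ythdf1, a cytoplasmic reader, from 14.03 to 13.80. Enrichment of the Fto CDS region was 2.75, 3.48 and 2.49 in naive and 3.60, 2.76 and 1.96 in trained animals, which overlap. Mettl14, a core subunit of the writer, was not listed, and its CDS enrichment was 3.22, 6.31 and 2.85 against 2.60, 2.56 and 2.67 (log2 difference -0.50 ± 0.274 SE, adjusted p = 0.9999). The naive animals were all higher there, with replicate 2 well above the other two. Mettl3, the catalytic subunit, had no region in these 6 animals.

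Peaks in markers of hippocampal cell types were found in all 6 animals, in unequal shares. Of 8 CA3 pyramidal markers 3 to 4 had a peak in an animal, and of 14 interneuron markers 5 to 8. Each animal had a peak in 6 of 8 CA1 pyramidal markers, 5 of them with a peak in every animal. Of 12 dentate granule markers 9 to 11 had a peak, of 13 astrocyte markers 7 to 11, of 13 oligodendrocyte markers 9 to 11 and of 12 microglia markers 6 to 10. Choroid plexus markers, which can enter from neighbouring tissue, had peaks for 3, 1 and 6 of 10 genes in naive and 2, 1 and 1 in trained animals. Listed choroid plexus peaks were 4, all in Kl, which encodes klotho, and all were lower in trained mice, for example from 12.62 to 11.45 in the CDS. Striatum markers had peaks for 7 to 9 of 10 genes, and both listed peaks, in Drd1a (10.95 to 10.15) and Penk (11.53 to 10.93), were lower. This share is near that of the CA1 markers, so a peak in a marker gene does not by itself identify the tissue. The part of such tissue in the differences was not tested.

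The difference between trained and naive WT mice was then set against that of knock-in mice (KI, with 1 expanded huntingtin copy, Hdh+/Q111) of the same age and of WT mice of 8 months. Peaks went from 36490 ± 4040 to 35447 ± 3080 with training in KI mice of 5 months and from 34769 ± 6012 to 37821 ± 5335 in WT mice of 8 months (SD, n = 3 each). The training differences were -6632 and -1043 peaks by genotype (difference -5589, exact permutation of training labels within each pair of groups, 400 arrangements, p = 0.225). At the 2 ages they were -6632 and 3053 (difference -9684, exact permutation, p = 0.095). The permutation assumes no training difference in either pair of groups, so it does not directly test whether 2 training differences are equal.

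No single region responded differently by genotype or age at the adjusted threshold. For genotype, 0 of 13125 regions called in all 12 animals passed in limma (0%, smallest adjusted p = 0.9999) and 484 (3.69%) had an unadjusted p under 0.05. For age, 0 of 12798 passed (0%, smallest adjusted p = 0.9989) and 503 (3.93%) had an unadjusted p under 0.05. Of 44 immediate-early regions, 2 were under 0.05 unadjusted for genotype. In the CDS of Nr4a2 the training difference in enrichment was -0.44 (log2) in WT and 0.23 in KI mice (difference -0.68 ± 0.309 SE), and in the 3'UTR of Klf6 it was -0.45 and 0.35 (difference -0.81 ± 0.383 SE, adjusted p = 0.9999 for both). For age there was 1, the CDS of Ptgs2, the inducible cyclooxygenase, with 0.23 at 5 and -0.64 at 8 months (difference 0.87 ± 0.388 SE, adjusted p = 0.9989).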

How the data were processed

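The authors trimmed reads with BBDuk, aligned them to mm9 with STAR 2.7.3a, called peaks of each m6A-IP against its own input with MACS2 2.2.6 and used DiffBind 2.8.0, with DESeq2, for comparisons of conditions (paper's methods and submitters' processing notes). The deposited peak lists give each summit with its fold enrichment over the input (a ratio) and its p-value and q-value as -log10. The table the authors deposited for this comparison gives the mean level of each group on the log2 scale. Whether input reads were subtracted in it is not given in the sources used here. The table also holds the authors' fold change, p-value and adjusted p-value, which were not used. Its column names stand in a misplaced last line, are the same in every table and name other groups, so the direction was taken from the series' design text, and peak calls per animal go the same way. Its 19060 rows are 5962 distinct peaks, all past the authors' p filter. Input libraries were not analysed here.

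Peaks outside the autosomes, X and Y were left out (34 to 101 per animal). Peaks of the 6 animals that overlapped by at least 1 bp were joined with bedtools 2.31.1, and the strongest summit gave a region its class in gencode vM1 on NCBIM37 (mm9), by the first match among CDS, then 3'UTR, 5'UTR, intron, noncoding gene and outside genes. Fold enrichment (highest peak of a region, log2, quantile-normalized) was tested in R 4.3.3 with limma 3.58.1, using a trended prior and Benjamini-Hochberg adjustment at 0.05, after a check on simulated data. Per-animal measures were compared with two-sided exact permutation tests. Genotype and age were compared by interaction contrasts in all 12 animals.

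Named genes were the 10 regions with the smallest p in each direction, the 8 strongest regions called in 1 group alone in each direction, the 8 listed peaks with the largest level difference in each direction, the smallest p of each gene list, and fixed genes (Fos, Arc, Egr1, Npas4, Nr4a1, Homer1, Bdnf, Fto, Mettl3, Mettl14). Others were chosen after their values were seen. The members and the 25 gene lists were chosen with earlier results of these data known. Replicate numbers only name animals.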

Additional observations from a re-analysis of the deposited data

How the results depend on the processing

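No paired analysis was possible because each animal was in 1 condition and replicate numbers follow no pairing in the labels. The ratio of trained to naive peaks kept its direction in every alternative, at 0.814 with a -log10 q of at least 3, 0.839 with at least 5 (exact permutation test, p = 0.3), and 0.762 to 0.843 when each animal was left out in turn. Without 1 animal at a time the trained minus naive difference was 1.93 to 7.06 percentage points for CDS, -4.94 to -2.09 for introns, 0.47 to 2.02 for 5'UTRs, -0.11 to 1.71 for 3'UTRs and -0.68 to 0.43 for the stop codon window. The 3'UTR share turned to -0.81 with equal numbers of best peaks and to -0.11 without naive replicate 1, and the stop codon share to 0.30 without naive replicate 3 and 0.43 without trained replicate 2. Regions called in all naive and no trained animals numbered 305 with a -log10 q of at least 5, 151 with equal best peaks and 713 to 1468 with an animal left out, which eases the rule by construction. Those called in all trained and no naive animals numbered 106 with equal best peaks, 94 with peaks joined by summits and 53 to 175 with an animal left out. Leaving out animals here, and leaving out listed peaks at the lowest level (940 higher and 5009 lower), were chosen after seeing the data.

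No setting of the enrichment test gave an adjusted p under 0.05, the smallest being 0.204 without naive replicate 1. At an unadjusted p under 0.05, 128 regions were higher and 414 lower without normalization, 390 were higher when 2 of 3 animals a group sufficed, and 259 to 296 were higher and 250 to 303 lower with an animal left out. Of 2008 values of 158 single regions under the alternatives, 9 moved by over 1 SD and 0 became calls. Without naive replicate 2 the enrichment difference was -0.28 in the 3'UTR of Klf2, against 0.27 with it. The causes were not tested. Both interaction tests gave 0 calls with median centring and with a -log10 q of at least 5.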
